A study of Mus musculus with 20 samples.

Results

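The comparison described here asked how mRNAs are redistributed between light and heavy polysomes when Rpl10a is knocked down in mouse embryonic stem cells. Its members were chosen by sample: the 8 RNA-seq libraries of the series' 20, and within them all 8084 transcripts listed. The cells were wild-type E14, an established pluripotent line, transfected with an siRNA against Rpl10a or with a universal negative control siRNA, and all were given cycloheximide at 100 µg/ml for the last 1 min in culture. RNA was taken from 2 pools of a gradient: a heavy pool of mRNAs carrying at least 4 ribosomes, and a light pool of the remaining fractions, from free ribonucleoproteins and ribosomal subunits to mRNAs with up to 3 ribosomes. The 4 groups (control light, control heavy, Rpl10a light, Rpl10a heavy) had 2 libraries each. A single siRNA sequence stood for the knockdown. The remaining 12 libraries were ribosome profiling of tagged lines and served here as a separate readout.

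Ribosomes that translate an mRNA together form a polysome, and the number on one mRNA depends on the balance of initiation, elongation and termination and on the length of the coding sequence. In a sucrose gradient, mRNAs with more ribosomes sediment further, so the heavy-to-light ratio of an mRNA reflects how many ribosomes its molecules carry, and not how closely these are spaced. RPL10A is a protein of the large ribosomal subunit, near the site where tRNAs leave the ribosome. Cycloheximide blocks elongation and holds ribosomes in place during lysis.

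The measure is the polysome shift: the log2 heavy-minus-light difference with Rpl10a siRNA, minus the same difference with control siRNA, on deposited RPM values (reads scaled by library size, not by length) plus 1. A shift above 0 means that a transcript lay further toward the heavy pool on knockdown. Because each library is scaled to its own size, a shift compares a transcript with the rest of its pools, and a gain in one pool cannot be told apart from a loss among its other transcripts. The UCSC transcript identifiers were not paired with gene names (0 matched the reference tables), so the level of Rpl10a, pluripotency and differentiation markers and gene lists could not be examined and were not analysed here. The strength of the knockdown was therefore not checked, and 4 transcripts are named by identifier.

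Library sums lay between 943664 and 1067209, and library medians between 43.6 and 48.8 RPM. Read depth is unknown. Replicates of a group correlated across transcripts with Pearson r from 0.975 to 0.987 on the log2 scale. The Rpl10a heavy libraries stood furthest apart, with an SD of the replicate difference across transcripts of 0.39 on the log2 scale, against 0.27 to 0.31 in the other groups. Nothing in the labels tells whether the replicates of a group came from separate cultures, and the p-values therefore cover the spread between these libraries, which may be technical.

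With Rpl10a siRNA, transcripts shifted in both directions between the pools. In limma, 231 of 8084 transcripts (2.86%) were called toward the heavy pool and 289 (3.57%) toward the light pool at an adjusted p below 0.05, together 6.43% of those tested. The transcripts called toward heavy had a median shift of 0.86 on the log2 scale, from 0.62 to 1.38. Those called toward light had a median of −0.90, from −1.55 to −0.64. Over all transcripts the median was 0.09, the SD was 0.48, and the values ran from −1.55 to 1.75. Called transcripts thus lay outside the quartiles of all shifts, −0.28 and 0.45. Transcripts not called ran from −1.44 to 1.75, so the calls were not simply the tails. Of the 188 transcripts with a shift beyond 1 in either direction, 54 were not called.

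The calls depend on single libraries and on the model. Without a variance trend limma called 0 transcripts, with a smallest adjusted p of 0.0504 against 0.031 in the main fit. At an unadjusted p below 0.05 there were 2443 without the trend and 2462 in the main fit. Tested against a 1.5-fold shift, limma called 0, with 202 at an unadjusted p below 0.05. With any 1 library left out all calls were lost, except without the second Rpl10a heavy library, where more were called. The split depends on the scaling and on a replicate term: a replicate block, for numbers that no label ties to a gradient, gave 1463 calls toward heavy and 1057 toward light, and aligning library medians, which moves the median of all transcripts from 0.09 to −0.02, gave 112 and 412.

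Libraries numbered 1 and libraries numbered 2 give separate estimates of the shift, as they have no library in common. The 2 estimates had the same sign for 6728 of 8084 transcripts (83.2%) and correlated across transcripts with r = 0.80 (Spearman rho 0.80). With replicate numbers crossed between heavy and light libraries, 6197 transcripts (76.7%) had the same sign and r was 0.63. These are descriptions across transcripts, which are not independent replicates and share the 4 libraries of each estimate. For the transcripts called toward heavy the median shift was 0.88 in the first set and 0.85 in the second, and for those called toward light it was −0.90 in both. All 520 called transcripts had the same sign in both sets, which the calls themselves nearly require.

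**Figure D1:**
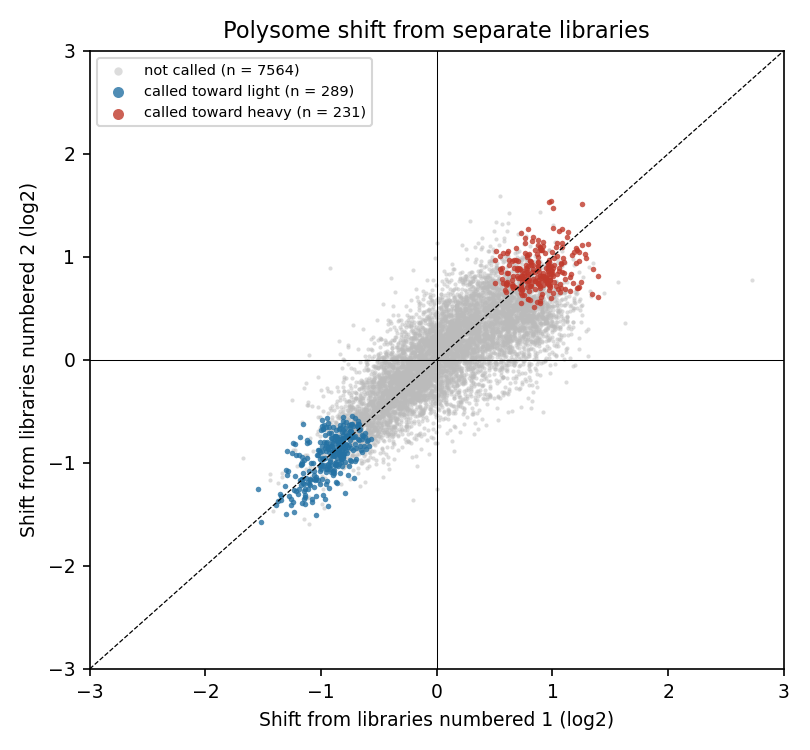
Polysome shift (log2) of each of 8084 transcripts from the 4 libraries numbered 1 (horizontal axis) and the 4 numbered 2 (vertical axis); red and blue points were called toward heavy (231) and toward light (289), grey points were not called (7564), and the dashed line marks equal values. Points follow the dashed line (r = 0.80), with the called transcripts toward both ends of the cloud.

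The heavy-minus-light values of the 2 siRNAs, taken from same-numbered libraries, did not overlap for 5531 transcripts (68.4%). In 3169 of these (39.2% of all) both values with Rpl10a siRNA were above both with control siRNA, and in 2362 (29.2%) both were below. All 520 called transcripts were among them, which is again close to what a call requires with 2 libraries in each group. Without any shift, 2 values against 2 would be apart in either direction with a probability of 0.333. The median heavy-minus-light values over all transcripts also differed, at 0.22 and 0.11 with Rpl10a and −0.02 and −0.04 with control siRNA. The 68.4% is therefore not the share of transcripts that shifted.

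Single transcripts were taken from the 150 calls toward heavy and 259 toward light with a mean level not below the median and no overlap between siRNAs. Toward heavy, the largest moderated statistics among them belonged to uc008ekv.2 and uc007lzz.1. uc008ekv.2 stood at 64.4 and 70.3 RPM in the control light libraries and at 36.4 RPM in both control heavy libraries. With Rpl10a siRNA its light values were 59.0 and 65.8 RPM and its heavy values 84.0 and 75.5 RPM. Its light values thus overlapped between siRNAs, while both heavy values with Rpl10a siRNA were above both control values. Its shift was 1.22 (SE 0.17, limma adjusted p = 0.031), a 2.33-fold change of the heavy-to-light ratio, composed of a change of 1.11 in the heavy pool and −0.11 in the light pool.

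uc007lzz.1 had 261.7 and 290.7 RPM in the control light libraries and 155.7 and 154.5 RPM in the control heavy libraries. With Rpl10a siRNA it had 203.6 and 214.7 RPM in light and 279.4 and 242.3 RPM in heavy. Here both pools contributed: the light values were lower and the heavy values higher with Rpl10a siRNA, with no overlap in either pool. Its shift was 1.14 (SE 0.16, limma adjusted p = 0.031), from changes of 0.74 in heavy and −0.40 in light. Both transcripts lay on the light side with control siRNA (heavy minus light −0.87 and −0.83) and on the heavy side with Rpl10a siRNA (0.35 and 0.31).

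Toward light, the largest statistics belonged to uc008utr.2 and uc007puy.1. uc008utr.2 had 126.5 and 124.3 RPM in the control light libraries and 509.8 and 527.5 RPM in the control heavy libraries. With Rpl10a siRNA its light values were 187.7 and 193.4 RPM and its heavy values 331.4 and 365.1 RPM. Neither pool overlapped between siRNAs, and the 2 parts were of similar size, −0.57 in heavy and 0.60 in light. The shift was −1.17 (SE 0.15, limma adjusted p = 0.031).

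uc007puy.1 had 432.0 and 389.8 RPM in the control light libraries and 1080.9 and 1133.1 RPM in the control heavy libraries. With Rpl10a siRNA it had 535.0 and 574.7 RPM in light and 607.2 and 661.2 RPM in heavy. Again neither pool overlapped. The shift was −1.24 (SE 0.16, limma adjusted p = 0.031), with −0.80 in heavy and 0.43 in light. Both transcripts remained on the heavy side with Rpl10a siRNA, with heavy-minus-light values falling from 2.04 to 0.87 for uc008utr.2 and from 1.43 to 0.19 for uc007puy.1. The adjusted p was the same for all 4 because 57 transcripts shared the smallest value that the adjustment gave.

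**Figure D2:**
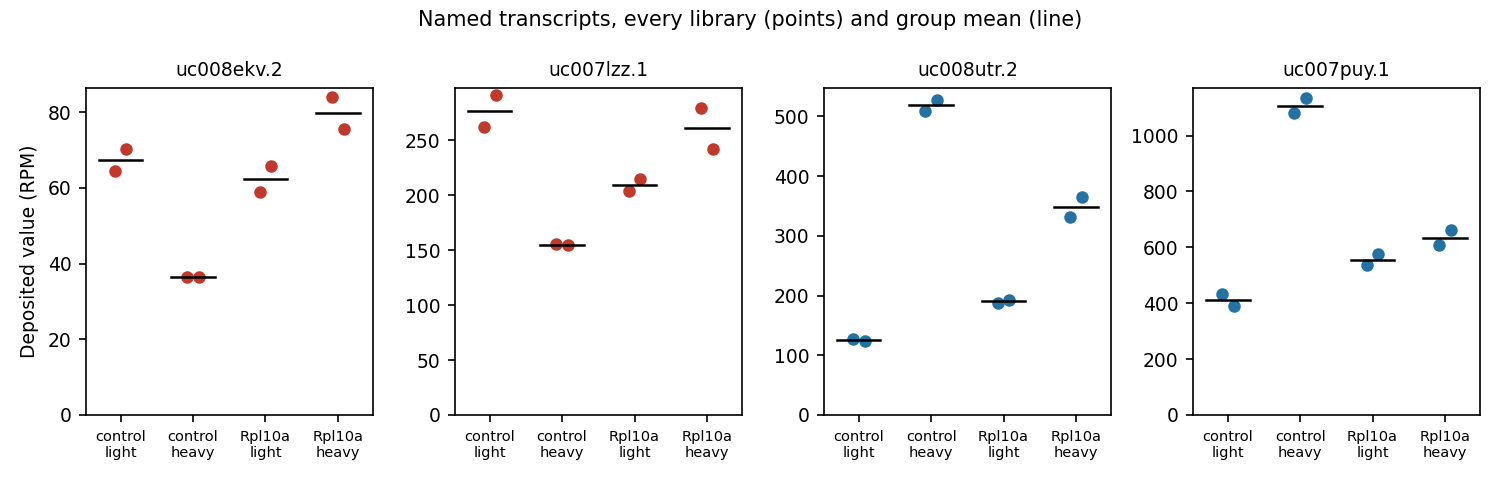
Deposited values (RPM, linear axes from 0) of uc008ekv.2, uc007lzz.1, uc008utr.2 and uc007puy.1 in all 8 libraries; points are single libraries, lines are means of 2, red marks a call toward heavy and blue a call toward light. In the 2 panels on the left the heavy values rise above the light ones with Rpl10a siRNA, and in the 2 on the right the gap between heavy and light narrows.

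The pools contributed unequally to the shift. Among the 231 transcripts called toward heavy, the change in the heavy pool had a median of 0.85 and that in the light pool of −0.03, and the heavy part was the larger for 212 (91.8%). Of these 231, 124 had opposite changes, higher in heavy and lower in light, and 107 were higher in both pools, but more so in heavy. The median change in the light pool was near 0 and its sign turned to 0.03 when libraries were scaled to equal totals.

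The transcripts called toward light had another composition. Their median change was −0.63 in the heavy pool and 0.34 in the light pool, and 277 of 289 changed in opposite directions, lower in heavy and higher in light. Another 11 were lower in both pools and 1 was higher in both. The heavy part was the larger for 235 (81.3%). Over all 8084 transcripts 2699 (33.4%) changed in opposite directions, the heavy part was the larger for 5850 (72.4%), and the median changes were 0.01 in heavy and 0.02 in light. With libraries scaled to equal totals the heavy part was the larger for 185 of the 289 (64.0%), below the 70.9% of all transcripts, and with medians aligned for 257 (88.9%), above 74.9%, so how the group compares with all transcripts depends on the scaling. For the 231 called toward heavy the share was 93.9% with equal totals and 88.3% with medians aligned. The parts come from the contrast that made the calls, so these counts describe the called transcripts and were not tested.

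**Figure D3:**
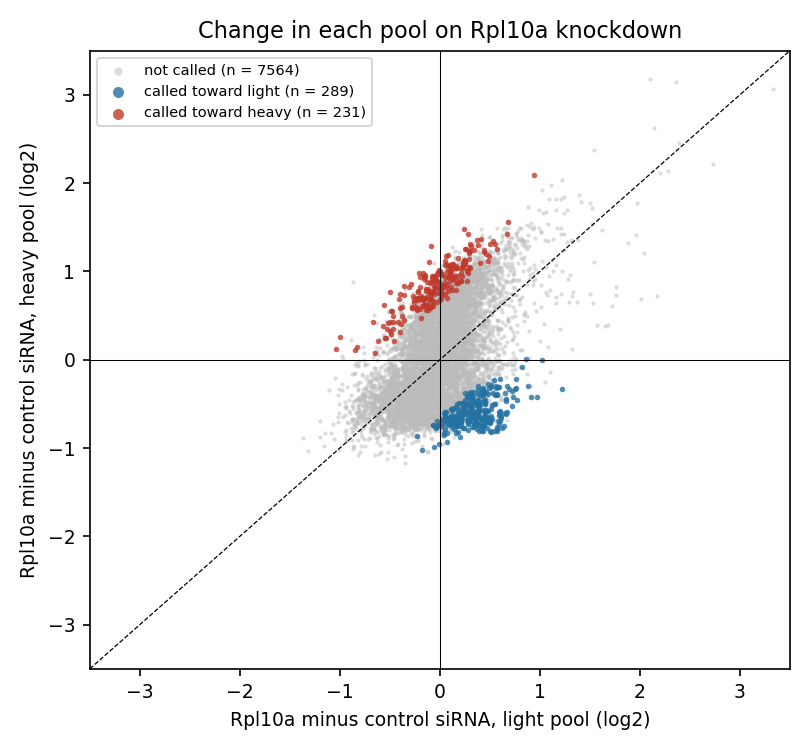
Change on Rpl10a knockdown (Rpl10a minus control siRNA, log2, group means of 2 libraries) in the light pool (horizontal axis) and the heavy pool (vertical axis) for 8084 transcripts. The vertical distance from the dashed line of equal change is the shift. Transcripts called toward heavy (red, 231) lie above the line around 0 on the light axis, and those called toward light (blue, 289) lie mostly in the lower right quadrant.

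The sums over called transcripts show how much of each library they took. They come from the libraries that made the calls, which largely fix their direction, and give a size and no further support. The 231 called toward heavy held 3.22% and 3.03% of the summed values in the control heavy libraries and 6.61% and 6.22% in the Rpl10a heavy libraries. In the light pools they held 4.96% and 5.47% with control siRNA and 4.92% and 5.00% with Rpl10a siRNA, values that overlap. The 289 called toward light held 16.2% and 16.7% of the control heavy libraries and 11.0% and 12.1% of the Rpl10a heavy libraries. Their share of the light pools was 6.44% and 6.25% with control siRNA and 8.48% and 8.47% with Rpl10a siRNA. The 289, 3.57% of the transcripts, thus made up a larger part than their number in all 8 libraries, most of all in the control heavy pool. The 231, 2.86% of the transcripts, did so too, least of all in the control heavy pool.

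**Figure D4:**
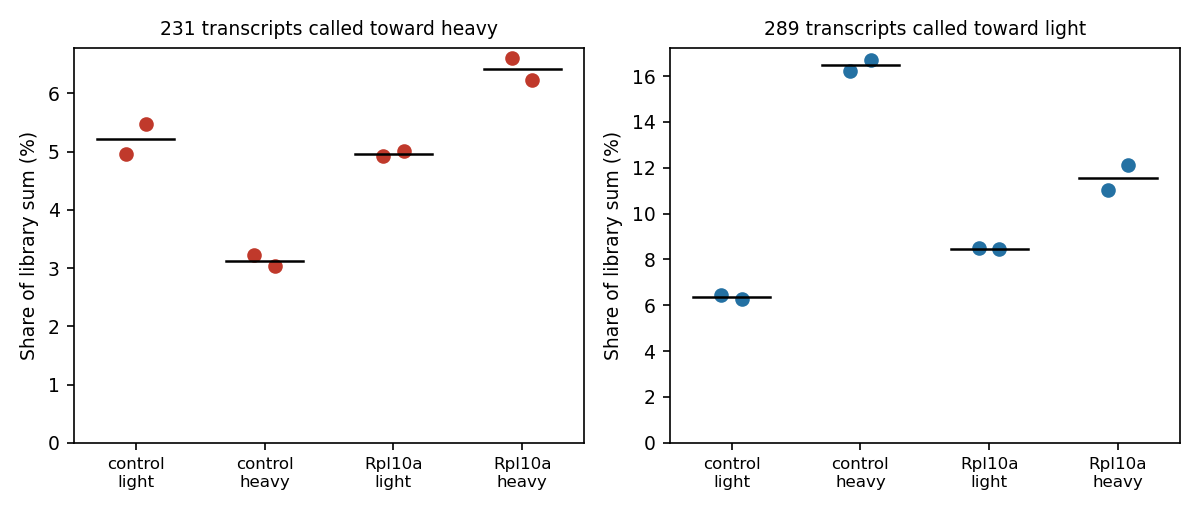
Share of the summed deposited values of each library (%, axes from 0) held by the 231 transcripts called toward heavy (left) and the 289 called toward light (right); points are single libraries and lines are means of 2. The left group gains in the heavy pool on knockdown (from 3.03% and 3.22% to 6.22% and 6.61%), and the right group falls there and rises in the light pool.

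Both called groups ended at a like position between the pools. With control siRNA, transcripts called toward heavy had a median heavy-minus-light value of −0.39 and those called toward light of 1.41. With Rpl10a siRNA the medians were 0.49 and 0.48. By library number their order turned, with 0.57 toward heavy and 0.42 toward light from libraries numbered 1, and 0.43 and 0.56 from those numbered 2. Over all 8084 transcripts the median went from −0.04 to 0.16. Of the 231 called toward heavy, 187 lay on the light side with control siRNA and 151 changed sides on knockdown. Among all 8084, 4209 lay on the light side with control siRNA and 1418 changed from light to heavy. Of the 289 called toward light, 288 lay on the heavy side with control siRNA, 51 changed sides and 281 came closer to equal values in the pools. Among all 8084, 3875 (47.9%) lay on the heavy side with control siRNA and 494 changed from heavy to light. Of those called toward heavy, 105 (45.5%) came closer to equal values, below the 4526 of 8084 (56.0%) among all transcripts. The control libraries enter both the position and the shift, so these counts describe the called transcripts and were not tested.

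Across all transcripts the tails of the heavy-minus-light distribution were narrower with Rpl10a siRNA. The SD of heavy minus light was 0.85 and 0.80 in the control libraries numbered 1 and 2, and 0.73 and 0.67 in the Rpl10a libraries. A difference of more than 1 in either direction was found for 1867 and 1577 transcripts with control siRNA (23.1% and 19.5%), and for 1076 and 918 with Rpl10a siRNA (13.3% and 11.4%). In both measures the values of the siRNAs did not overlap. The interquartile range did overlap, with 1.09 and 1.01 for control and 1.04 and 0.94 for Rpl10a siRNA. With 2 against 2, an exact permutation test (two-sided) cannot give a p below 0.333. With numbers crossed between heavy and light libraries the SDs were 0.85 and 0.85 with control and 0.78 and 0.72 with Rpl10a siRNA.

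The composition of the pools also differed. The 10 highest transcripts of a library held 9.76% and 9.67% of the control light libraries and 4.36% and 4.54% of the control heavy libraries. With Rpl10a siRNA they held 7.80% and 8.44% of the light and 4.54% and 5.36% of the heavy libraries. The highest single value in the heavy pool was 5022 and 5382 RPM with control siRNA and 10051 and 12608 RPM with Rpl10a siRNA. In the light pool it was 13873 and 13906 RPM with control and 10252 and 12604 RPM with Rpl10a siRNA, the latter close to the heavy values of the same numbers.

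Direction changed with the read level. Transcripts were divided into 5 equal groups by their mean log2 value over the 8 libraries, which reflects both abundance and length. The median shift was 0.18 in the lowest, then 0.18, 0.13, 0.03 and, in the highest, −0.13. In the libraries numbered 1 the lowest and highest groups had medians of 0.20 and −0.17, and in those numbered 2 of 0.15 and −0.09. With library medians aligned the values were 0.07 and −0.24, so the order was kept. The heavy pool carried this trend: its median change went from 0.17 in the lowest to −0.30 in the highest group, while that of the light pool stayed between −0.01 and 0.04.

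Calls were denser among transcripts with high values, most of all toward light. In the lowest group 14 transcripts (0.866%) were called toward heavy and 3 (0.186%) toward light. In the highest group 70 (4.33%) were called toward heavy and 184 (11.4%) toward light, against 2.86% and 3.57% of all transcripts. The median SE of the shift fell from 0.29 in the lowest to 0.19 in the highest group, so precision moved with level, and its part in the counts was not tested.

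Ribosome footprints gave a readout that the shift did not use. They were measured in unperturbed lines with an epitope tag on 1 allele of Rpl10a, Rps25 or Rpl22, as RPKM, which is scaled by length. RPKM was not divided by RNA level, so it reflects the abundance of an mRNA as well as the ribosomes on each copy. In the total libraries of the Rpl10a line (means of 2), the median footprint density was 196 RPKM for the transcripts called toward light, 66.4 RPKM for those called toward heavy and 25 RPKM for all 8084. In the Rps25 line the medians were 196, 67.6 and 26.0 RPKM, and in the Rpl22 line 183, 74.3 and 27.4 RPKM. Both called groups were thus densely footprinted in the 3 lines, and the group called toward light most.

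Within the highest group of read level the called groups lay closer together. There the median density in the Rpl10a line was 445 RPKM for the 184 called toward light, 414 RPKM for the 70 called toward heavy and 156 RPKM for the 1363 not called. In the Rps25 line the order of the called groups turned, with 438 RPKM toward heavy and 420 RPKM toward light. The quartiles overlapped widely (198 to 1659 RPKM toward light and 171 to 786 RPKM toward heavy in the Rpl10a line). At this level, then, called transcripts of both directions had denser footprints than those not called, in medians that were not tested. The group still spans mean log2 values from 6.96 to 13.04, set by both abundance and length. These medians therefore do not give ribosomes per mRNA.

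Ranked by total footprint density in the Rpl10a line, the quintile with the sparsest footprints (median 6.10 RPKM) had a median shift of 0.16, and the quintile with the densest (median 200.1 RPKM) of −0.15. Of the 1617 transcripts in the densest group 211 (13.0%) were called toward light and 95 (5.88%) toward heavy. In the sparsest group 1 was called toward light and 10 toward heavy. The same ranking in the Rps25 and Rpl22 lines gave medians of 0.16 and 0.15 in the sparsest and −0.15 and −0.16 in the densest groups. Transcripts of dense footprints thus had lower median shifts with the footprints of all 3 lines. Footprint density was not separated from RNA level, along which the median shift also fell. SE falls with level too, and its part in the counts of calls was not tested.

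**Figure D5:**
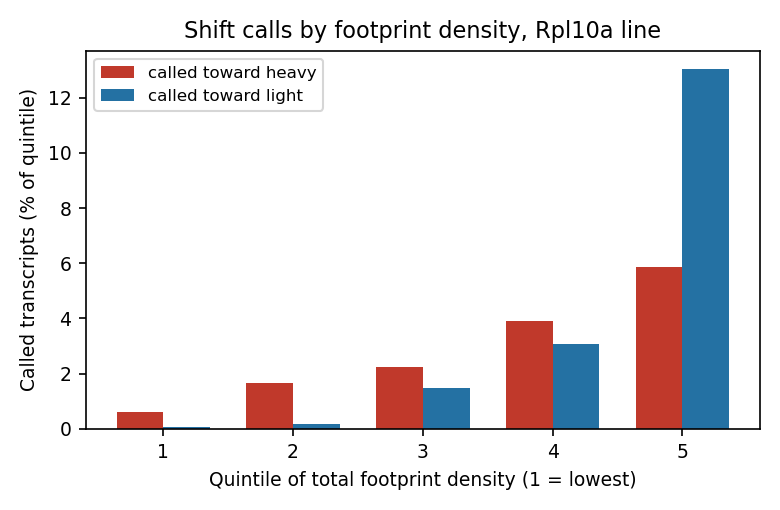
Share of transcripts called toward heavy (red) and toward light (blue), in % of each quintile of 8084 transcripts ranked by total footprint density in the Rpl10a line (1 is the sparsest). Calls toward light rise from 1 transcript in the sparsest group to 13.0% in the densest, and calls toward heavy from 0.618% to 5.88%.

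The last readout was the capture of tagged ribosomes, given as log2 of immunoprecipitated over total footprints. In the RPL10A capture, transcripts called toward heavy had a median ratio of −0.05 and those called toward light of −0.04, against 0.00 for all 8084. Of the 289 called toward light 159 (55.0%) were below 0, as were 127 of the 231 called toward heavy (55.0%), against 49.6% of all. The called groups thus lay close together in the capture of the protein that was knocked down. Without the first total library of that line the medians were −0.081 toward heavy and −0.0037 toward light, and without the second they were 0.0021 and −0.015, in the opposite order. In the RPS25 capture the medians were −0.06 toward heavy and −0.01 toward light, against 0.01 for all 7704 transcripts measured in both tables.

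In the RPL22 capture the called groups lay on either side of 0. Transcripts called toward heavy had a median of −0.07, with 157 of 230 below 0 (68.3%), and those called toward light of 0.05, with 117 of 288 below 0 (40.6%), against −0.04 and 56.5% for all 7489 measured. The medians from the first and second replicate were −0.10 and −0.05 toward heavy and 0.05 and 0.05 toward light. For the Rpl22 line, the total libraries also carry the anti-HA capture antibody in their labels, against their titles. These ratios are small beside their quartiles, −0.18 to 0.03 toward heavy and −0.07 to 0.21 toward light, and their difference was not tested. The groups also differed in total footprint density in this line, with medians of 74.3 RPKM toward heavy, 183 RPKM toward light and 27.4 RPKM for all measured. In no capture were the ratios compared at matched density.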

How the data were processed

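The authors deposited 1 table per library. For the 8 RNA-seq libraries the values are a library-scaled signal, called RPM per the file headers, whose sums vary around a geometric mean of 1000242 by a further factor not given in the sources used here. For the 12 Ribo-Seq libraries they are RPKM, per the file headers. Tools named without versions in the submitters' processing notes are cutadapt, Bowtie2 and, for the RNA-seq and Rpl22 libraries, STAR, with the mm10 build. Per the labels, RNA-seq used rRNA depletion and a stranded mRNA kit with reads of 75 bp. Values are rounded to 1 decimal, so whole reads were not recovered and no count test was run.

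The shift was the interaction contrast of a fit of 4 groups (2 libraries each) on log2(value + 1), made in R 4.3.3 with the package limma 3.58.1, with a variance trend, no filter, two-sided, and Benjamini-Hochberg adjustment over 8084 transcripts. This scale understates changes of low values. The fit was run on simulated data with independent noise in each library. Replicate differences of the real libraries correlated between groups, a feature that the simulated data did not cover. Members, lists, the pseudocount of 1 and the trend were chosen with earlier results of these data known. Named transcripts were the 2 in each direction with the largest moderated statistic among those called, with a mean level not below the median and no overlap between siRNAs. Samples were treated as unpaired, as no label ties them to a culture or gradient. Figures and lists used Python 3.11.15. Alternatives were pseudocounts of 0.5 and 5, other scalings, a filter at a mean of 10, single libraries left out, replicate blocks, no trend and a test against a 1.5-fold change.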

Additional observations from a re-analysis of the deposited data

Results flagged for a closer look

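The change on knockdown was called different between the heavy and light pools in 520 of 8084 transcripts (6.43%). The call is by the test of that difference itself, the limma interaction contrast. The count was 0 without a variance trend and 0 against a 1.5-fold shift. The 4 named ones had shifts of 1.22 (uc008ekv.2), 1.14 (uc007lzz.1), −1.17 (uc008utr.2) and −1.24 (uc007puy.1). They were picked by the statistic of this same test and add no support to it. Groups of 2 libraries are too small for a check of single outlying libraries.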

How the results depend on the processing

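The 3 counts of called transcripts (all, toward heavy, toward light) ran from 0 to 2070, from 0 to 1201 and from 0 to 869 with single libraries left out. A group of 1 library remains there, assumed to vary like the others. Counts were 0, 0 and 0 without a variance trend and 0, 0 and 0 against a 1.5-fold change. With medians aligned, 112 were called toward heavy. All 520 called transcripts kept their sign in these fits (519 of the 519 left after the filter on low values). Other pseudocounts, equal totals and that filter kept each count within 1.5 times.

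With a replicate block the counts were 2520, 1463 and 1057, and with a replicate block within siRNA 2980, 1801 and 1179, so the more frequent direction turned toward heavy. Replicate differences of same-numbered libraries correlated with r from 0.403 to 0.622 over the 6 pairs of groups. With 2 numbers and no label that ties them to a gradient, this is a hint from the data, and the cause was not tested.

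The median shift of all transcripts was 0.0813 with a pseudocount of 5, 0.1397 with equal totals, −0.0221 with medians aligned, 0.0802 with the filter and from 0.067 to 0.102 with single libraries left out. The cause of the turn was not tested, beyond the median being set by that scaling. Transcripts called toward heavy had a median change of 0.0294 in the light pool with equal totals. The named transcripts kept their direction in all alternatives. They lost their call in 7 of 8 fits without 1 library, with shifts from 1.14 to 1.30 (uc008ekv.2), 1.04 to 1.24 (uc007lzz.1), −1.24 to −1.10 (uc008utr.2) and −1.31 to −1.16 (uc007puy.1).

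With medians aligned, the capture ratio of transcripts called toward light was −0.0548 (RPL10A), −0.0563 (RPS25) and 0.0821 (RPL22), and that of transcripts called toward heavy −0.1075 (RPS25). With a pseudocount of 5 the RPL22 value toward light was 0.05. With single libraries left out, values toward light ran from −0.045 to −0.0037 (RPL10A), −0.0205 to −0.0089 (RPS25) and 0.0355 to 0.0757 (RPL22), and those toward heavy from −0.0814 to 0.0021 (RPL10A), −0.096 to −0.0339 (RPS25) and −0.0853 to −0.0612 (RPL22). Read depth is unknown, so its limit on low values cannot be given.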
